A study of Mus musculus with 4 samples.

Results

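The Secretory-Reg4-Ang4 class was a group of 246 cells among the 6155 single cells of the series, and all 246 came from the library of TNF-treated wildtype colonic organoids. Its members were the cells that carried this class label in the deposited cell table. They made up 16.7% (95% exact Clopper-Pearson interval 14.9 to 18.8) of the 1469 cells of that library, 21.2% (18.8 to 23.6) of its 1163 epithelial cells and 63.4% (58.4 to 68.2) of its 388 secretory cells. The label named Ang4 and Reg4 as leading genes, and every gene of these cells could enter the clustering behind it. Differences from other classes are therefore a description of the class, and no test between classes or libraries is given.

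The organoids were grown from digested distal colon of 16-week-old mice, either wildtype or Tnfr2-/-, the latter without a working Tnfrsf1b gene for TNF receptor 2. Tumor necrosis factor (TNF) was given to some cultures after passage 5 (20 ng/ml, starting at day 1 and ending at day 6), and all cultures were dissociated on day 7 and depleted of apoptotic cells. Each genotype had 1 vehicle library and 1 TNF library, so that the spread between cultures or mice is not known. The cultures held mesenchymal cells beside the epithelium. The comparisons below are with the 111 Secretory-Reg4-Spdef-Lyz1 cells and the 304 Mesenchyme-Ptges cells of the same library.

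Colonic secretory cells arise from crypt progenitors under the transcription factor Atoh1. Goblet cells make the gel-forming mucin Muc2 and the trefoil peptide Tff3, and deep crypt secretory cells, marked by Reg4, sit beside the stem cells at the crypt base much as Paneth cells do in the small intestine. Ang4 is an antimicrobial ribonuclease of the angiogenin family found in Paneth cells and in colonic secretory cells. Clps encodes colipase, Ccl6 a chemokine, and Spink4 a secreted peptide of the Kazal protease inhibitor family that is abundant in goblet cells.

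The 4 libraries held 44547639 to 87228093 UMIs (unique molecular identifiers, 1 per captured RNA molecule). Over all cells Tnfrsf1b was at 9.76 CPM (UMIs of a gene per 1000000 UMIs) in untreated wildtype, 14 in TNF-treated wildtype, 2.05 in untreated Tnfr2-/- and 7.59 in TNF-treated Tnfr2-/-. These libraries tag the 3' end of a transcript, and which part of the gene the allele disrupts was not known here, so this level is no check of the label. The libraries shared 3 cell barcodes in all, and none of the 246 was among the barcodes of another library.

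The class was the shallowest of the library. Its cells held 894 to 6076 UMIs, with a median of 1957.5 (quartiles 1572 and 2356) from a median of 986 genes. Spdef-Lyz1 cells had a median of 48833 UMIs from 6093 genes and Mesenchyme-Ptges cells 48633 UMIs from 6685 genes. The next shallowest class, Progenitor.3, had a median of 9570 UMIs. Of the 319 cells of the library at or below the deepest Ang4-class cell, 246 were the class itself, and the other 73 were 46 Progenitor.3, 12 Mesenchyme-Ptges, 8 Spdef-Lyz1, 4 Progenitor.2 and 3 enteroendocrine cells. Those 73 were 5.97% of the library outside the class, against 2.04% to 3.76% of the cells in the other libraries. At a matched depth the gap in genes per cell was gone. After each cell was thinned at random to 1000 UMIs, which left out 2 class cells, the median was 600.0 genes in the class, 583 in Spdef-Lyz1 and 641 in Mesenchyme-Ptges.

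**Figure D1:**
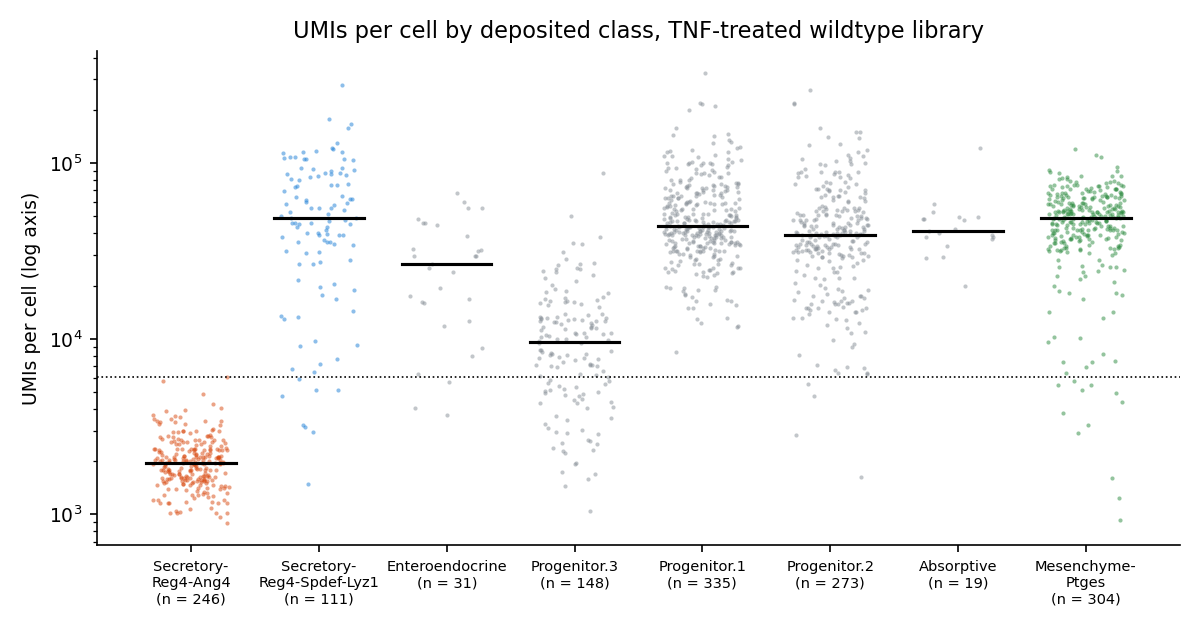
UMIs per cell (log axis) for the 8 main classes of the TNF-treated wildtype library, with a point for each cell and a bar at each median. The 246 class cells lie at or under the dotted line at 6076 UMIs, as do 73 cells of other classes, 46 of them Progenitor.3.

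The 5 marker genes of the class were all higher in its sum than in that of Spdef-Lyz1. Thinned to 1000 UMIs, 99.2% of class cells had a UMI of Spink4, 98.0% of Ang4, 91.4% of Reg4, 75% of Clps and 68.9% of Ccl6. Summed over the class (509597 UMIs), Ang4 (ENSMUSG00000060615; chromosome 14, 51763878 to 51773590, minus strand, GRCm38) had 5863 UMIs or 11505 CPM (exact Poisson interval 11212 to 11804). It was at 4498 CPM (4447 to 4550.2) in Spdef-Lyz1 and at 5.54 (4.4 to 6.89) in Mesenchyme-Ptges. The class thus held 2.56 times (2.49 to 2.63) the Spdef-Lyz1 level. These intervals, like all others here, cover counting error only. Reg4, a lectin of the regenerating gene family, was at 2629.5 CPM (2491 to 2774) in the class and 1021 (997 to 1046) in Spdef-Lyz1, a ratio of 2.58 (2.43 to 2.73). The other 3 markers were higher by less than 2-fold. Clps had 1366 against 767 CPM (ratio 1.78, 1.64 to 1.93), Ccl6 1242 against 784 (1.58, 1.46 to 1.72) and Spink4 30018 against 21129 (1.42, 1.40 to 1.44). All 5 were below 25 CPM in Mesenchyme-Ptges, where Spink4 was the highest at 24.4. Ang4 belongs to a family of close copies that reads may not separate. Its relatives Ang, Ang2, Ang5 and Ang6 were looked up after the values were seen. Ang5 and Ang6 had 2 and 0 UMIs in the class, and the levels of Ang and Ang2 are not given here.

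The same genes were lower in the Spdef-Lyz1 class of the other cultures than in the Ang4 class, apart from Reg4 in untreated wildtype. Ang4 was at 1012 CPM (976 to 1050.1) in untreated wildtype, 1427 (1379 to 1475) in untreated Tnfr2-/- and 695 (599 to 802) in TNF-treated Tnfr2-/-, the last from 8 cells. For Ang4 the class was above the Spdef-Lyz1 sums of all 4 libraries. Reg4 was at 2605 CPM (2546 to 2665) in the untreated wildtype Spdef-Lyz1 class, a level that the interval of the Ang4 class covers.

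Several abundant goblet and secretory genes stood near the level of Spdef-Lyz1, while the goblet list as a whole was lower. Muc2 had 2266 CPM (2138 to 2401) in the class and 2299.8 (2263 to 2337) in Spdef-Lyz1, a ratio of 0.986 (0.927 to 1.05). Spdef, which drives goblet maturation, had a ratio of 0.903 (0.691 to 1.16) from 65 UMIs, and Atoh1 one of 0.661 (0.336 to 1.18) from 12 UMIs. The intervals of these 3 ratios hold 1, but that of Atoh1 is too wide to place it near the Spdef-Lyz1 level. Tff3 was slightly lower (16046 against 17028 CPM, ratio 0.942, 0.921 to 0.964), and Sval1 slightly higher (7288 against 6374, ratio 1.14, 1.11 to 1.18). The epithelial genes Krt8 and Epcam were at 1923 and 2325 CPM, with ratios to Spdef-Lyz1 of 0.860 (0.805 to 0.918) and 0.950 (0.895 to 1.01). Epithelial and secretory markers were thus present, as the label says, but so were fibroblast markers, described further on, at many times their Spdef-Lyz1 level. The class as a whole was shallow and held mesenchymal UMIs, while within it the mesenchymal share was higher in the deeper cells. The part of free RNA or of damaged cells in the profile of the class was not tested.

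Some other secretory products were scarce or lacking, but not all. Of 4 Paneth cell markers that reached 50 CPM, 2 (Defa24 and Lyz1) were at least 2-fold lower than in Spdef-Lyz1. Against these, Mmp7 (1391 against 1094 CPM, ratio 1.27, 1.18 to 1.37) and Itln1 (153 against 109, ratio 1.40, 1.09 to 1.77) were slightly higher. Lyz1, the lysozyme of Paneth cells and part of the name of the neighbouring class, had 11 UMIs or 21.6 CPM (10.8 to 38.6) against 2258 (2222 to 2295), a 105-fold lower level. The alpha-defensin Defa24 had 0 UMIs. A limit of 3 UMIs, or 5.89 CPM, makes it at least 66.3-fold lower than the 390.3 CPM of Spdef-Lyz1. The 4 defensin genes together (Defa17, Defa21, Defa24 and Defa30) had 0 UMIs, where 201.8 would stand at the Spdef-Lyz1 level. Mptx1, a pentraxin among the study's deep crypt secretory genes, was at 56.9 CPM (38.1 to 81.7) against 560.3, and its 29 UMIs came from 4 cells. The goblet genes Zg16 (226 against 1823 CPM), Fcgbp (339 against 1326) and Agr2 (3825 against 8943), a disulfide isomerase needed for mucin folding, were lower by 8.08, 3.91 and 2.34 times. In Spdef-Lyz1 several of these products came from few cells. The 10 highest cells held 95.3% of the Zg16 UMIs, 78.5% of the Mptx1 UMIs and 69.1% of the Lyz1 UMIs, and 14 of 111 cells held all the UMIs of the 4 defensins.

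**Figure D2:**
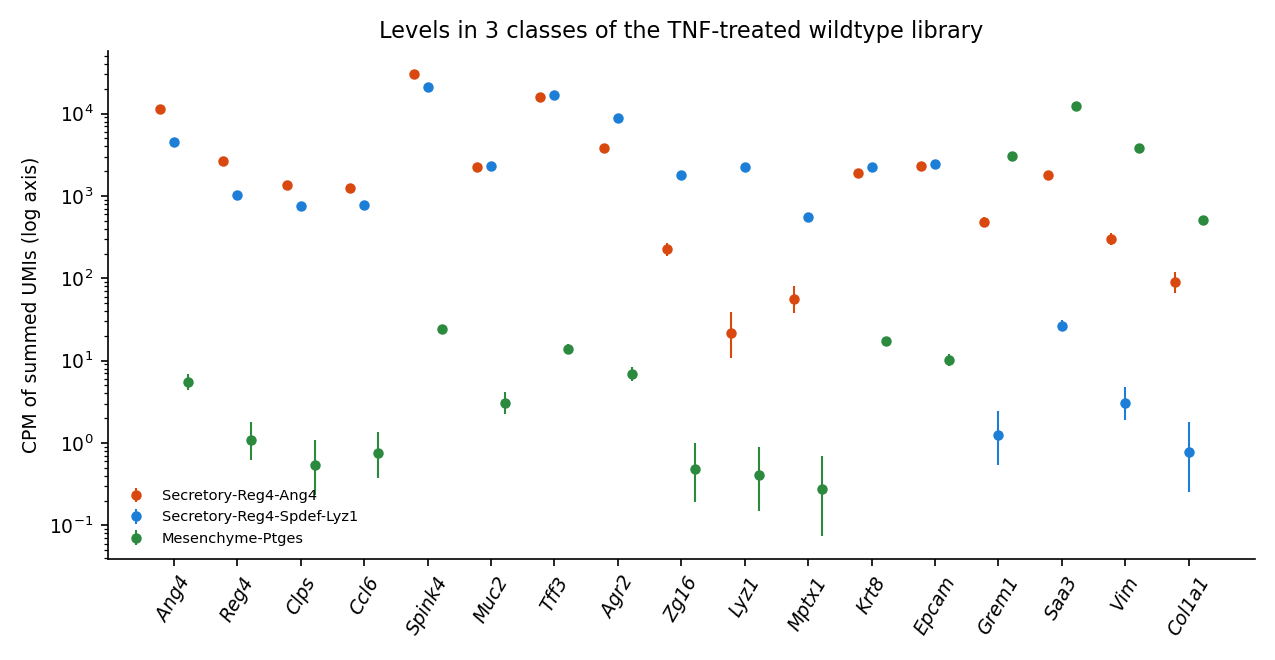
CPM of summed UMIs (log axis) for 17 genes in the Ang4 class, Spdef-Lyz1 and Mesenchyme-Ptges of the TNF-treated wildtype library, with exact Poisson intervals. Ang4 (11505 CPM) and Reg4 (2629.5) are highest in the class, Lyz1 (21.6) and Mptx1 (56.9) lie well under Spdef-Lyz1, and Grem1, Saa3, Vim and Col1a1 lie between the other 2 classes.

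Over all genes the class was close to Spdef-Lyz1. Of 3024 genes with at least 50 CPM in either class, 162 were at least 2-fold higher in the Ang4 class (5.36% of those compared) and 95 at least 2-fold lower (3.14%), on a log2(CPM + 1) scale with a median difference of -0.07. The 10 genes furthest above Spdef-Lyz1 (among genes at 100 CPM or more) were 9 genes that Mesenchyme-Ptges cells also held and Chgb, an enteroendocrine granule protein. The 9 were Grem1, Mmp13, Il1rl1, Pdpn, Sparc, Col12a1, Tnc, Igfbp7 and Gm13889. Those furthest below were Defa24, Lyz1, Mptx1, Zg16, Hbegf, Fcgbp, Acta1, Zfp36, Guca2a and Slpi, most of them products of mature secretory cells or genes that cells switch on within minutes of a stimulus.

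The counts of list members are to be read against 5.36% higher and 3.14% lower over all genes compared. Of the study's 20 goblet genes, 13 reached 50 CPM, of which 0 were 2-fold higher and 4 lower (Zg16, Fcgbp, Bcas1 and Clca1), with a median log2 difference of -0.84. Of 50 deep crypt secretory genes, 42 reached it, of which 1 (Reg4) was higher and 11 lower, with a median of -0.59. The 35 antimicrobial and mucosal defence genes split, with 5 of 17 higher (Saa3, Lcn2, Sprr2a1, Reg4 and Ang4) and 5 lower (Defa24, Lyz1, Mptx1, Zg16 and Slpi). Ang4 and Reg4 are markers of the class, and Saa3 and Lcn2 are among the mesenchyme-high genes described further on. The number of higher members is therefore no finding about this list. Secretory transcription factors had 0 of 10 higher and 1 lower, Creb3l1, the secretory pathway and unfolded protein genes 0 of 23 higher and 1 lower, Agr2, and the epithelial genes 0 of 20 either way, counts near those shares. Of 29 genes of the cycling progenitor list, 7 were higher (Tpx2, Prc1, Nusap1, Cenpf, Hmmr, Hist1h1b and Top2a) and 0 lower, with a median log2 difference of 0.25. Mki67, the common mark of cycling cells, was at 124 CPM (95 to 158) against 90.2 (83.0 to 97.8), and Lgr5, a stem cell marker, at 21.6 (10.8 to 38.6) against 18.6 (15.4 to 22.2). Of 14 absorptive genes, 3 were higher (Ly6g, Sprr2a3 and Selenop) and 1 lower (Abcb1a). Sprr2a3, a small proline-rich protein with close copies, had 3628 CPM against 1017. Of the 3 tuft cell markers, Trpm5 and Pou2f3 had 0 UMIs and Dclk1 had 8, or 15.7 CPM (6.78 to 30.9), against 0 UMIs in Spdef-Lyz1. The markers of erythroid and endothelial cells had 0 UMIs, and the 16 immune genes had 3 UMIs in all, from Cd68 and Csf1r.

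Ang4 was spread evenly over the class. After thinning to 1000 UMIs, 239 of 244 cells had a UMI of Ang4 (98.0%, 95.3 to 99.3), against 68 of 111 Spdef-Lyz1 cells (61.3%, 51.5 to 70.4) and 2 of 303 Mesenchyme-Ptges cells (0.660%, 0.0800 to 2.36). Without thinning the class had 241 of 246 cells with one. The thinned count per class cell had a mean of 12.1 and a variance of 23.4, with the middle 80% of cells between 6.3 and 19.0. Spdef-Lyz1 cells had a lower mean, 4.80, and a larger variance, 45.2, with a median of 2.0 and a highest cell of 33. The variance was thus 1.94 times the mean in the class and 9.41 times in Spdef-Lyz1, where counts drawn at random from a uniform population would give 1. Of 20 genes for which this ratio could be computed in both classes, it was lower in the Ang4 class for 17 and higher for 3. Among the 17 it was 3.21 against 8.04 for Spink4, 2.21 against 9.36 for Tff3, 1.62 against 5.74 for Sval1, 1.41 against 3.30 for Muc2, 1.18 against 2.80 for Reg4 and 1.29 against 4.01 for Agr2. The 3 were Malat1 (9.10 against 4.14), Saa3 (2.89 against 0.982) and Vim (1.07 against 1.0). The ratio also grows with the mean, so it is read for each gene beside its level.

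**Figure D3:**
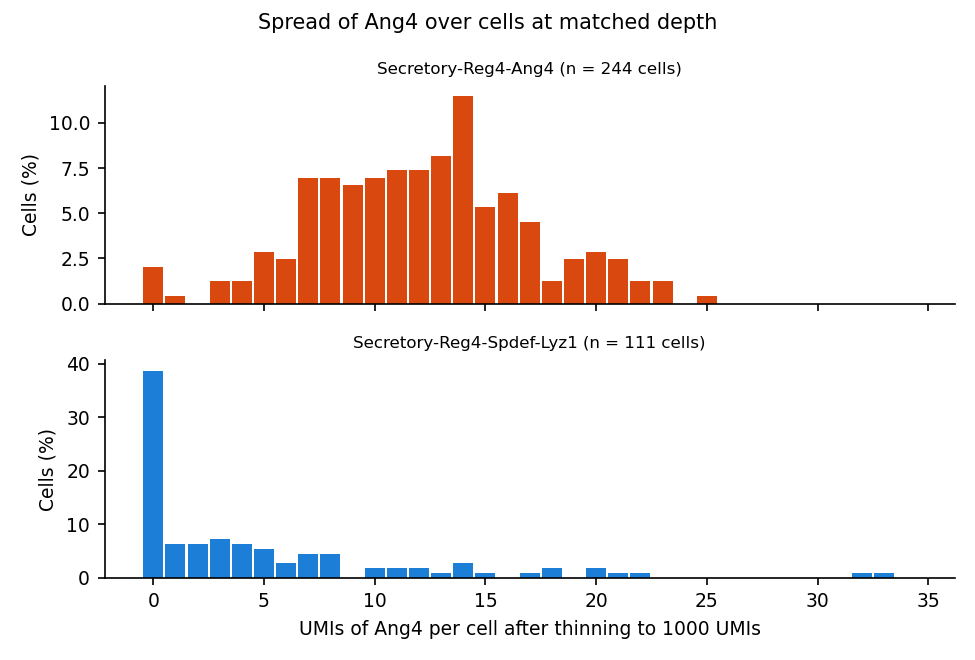
Share of cells (%) by the number of Ang4 UMIs after thinning each cell to 1000 UMIs, for 244 Ang4-class cells (top) and 111 Spdef-Lyz1 cells (bottom). The class forms a single hump around its median of 12, whereas Spdef-Lyz1 has its highest bar at 0 and a tail to 33.

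Some deeply read Spdef-Lyz1 cells held as much Ang4 as the class. In 28 of the 111 cells Ang4 reached the 10th percentile of the Ang4 class (7213 CPM), and these cells had a median of 47133.5 UMIs. Their sums of Clps (1302 CPM), Ccl6 (1369) and Spink4 (28551) were also near those of the class. They differed in Lyz1, at 6197 CPM (6072 to 6325) against 21.6, and in Defa24 (1047), Zg16 (3920.0) and Agr2 (8659.5). The Reg4 sum of these cells was 1411 CPM, below the 2629.5 of the class, and Grem1 was at 2.01. They were picked by their Ang4 level, so that level itself is no finding. The Lyz1 sum rested on few cells, as 5 of the 28 held 78.9% of its UMIs. Of the 28, 24 had a UMI of Lyz1 and 8 one of a defensin, and the Lyz1 level per cell had a median of 2053 CPM (quartiles 132 and 7199), with 5 cells at or below the 21.6 CPM of the class sum.

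Mesenchymal transcripts took a larger share of UMIs in the class than in any other epithelial class of the library. The measure was the share of a cell's UMIs in 167 mesenchyme-high genes, chosen without the Ang4 class. Such genes had at least 100 CPM in Mesenchyme-Ptges and were at least 20-fold above the pooled sum of the other epithelial classes. The rule thus held these genes low in the other epithelial classes but not in the Ang4 class. Part of the gap between them was therefore set by the choice of genes. The share was 1.27% (1.24 to 1.30) of the UMIs of the Ang4 class, 0.0365% (0.0351 to 0.0380) of those of Spdef-Lyz1 and 11.3% of those of Mesenchyme-Ptges. Among the other epithelial classes the enteroendocrine class was highest, at 0.469% (0.455 to 0.484). Per class cell the share had a median of 0.969% (quartiles 0.692 and 1.42) and ran from 0.0697% to 5.89%. All 246 cells had such a UMI, with a median of 19.0, but so did all 111 Spdef-Lyz1 cells, with a median of 16.0 from far more UMIs, so presence alone does not mark the class. In 240 of 246 the share was above that of the highest Spdef-Lyz1 cell, and in 5 it reached that of the lowest Mesenchyme-Ptges cell. A doublet caller put 14 of the 246 cells among the 88 highest scores of the library, and without these 88 the share was 1.06%. The part of doublets in the mixture was not tested beyond that.

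The same 246 cells held many secretory UMIs. In 24 genes with at least 100 CPM in Spdef-Lyz1 and 10-fold above progenitors and mesenchyme, here called Spdef-Lyz1-high, the median cell had 8.60% of its UMIs (quartiles 7.40 and 10.3), against 7.45% (5.39 and 11.6) in Spdef-Lyz1. This set holds the 5 markers that the class was described by. Without them, the other 19 genes had 3.55% (3.50 to 3.60) of the UMIs of the class and 4.64% (4.62 to 4.65) of those of Spdef-Lyz1, with medians per cell of 3.69% and 4.74%, and 220 of 246 class cells lay between the 10th and 90th percentile of Spdef-Lyz1 cells. Mesenchymal UMIs took a smaller share in cells of other epithelial classes at or below the deepest class cell. In this library these cells were part of the pool in which the genes had been chosen to be low. The 8 such Spdef-Lyz1 cells had 0.0538% of UMIs in mesenchyme-high genes (17 of 31604 UMIs, 0.0313 to 0.0861), and the 46 such Progenitor.3 cells had 0.0988% (0.0844 to 0.115). All 61 epithelial cells at or below 6076 UMIs in other classes of this library had 0.108% (0.0945 to 0.122). These cells were still deeper on average than the class, with 228748 UMIs in 61 cells against 509597 in 246. Shallow epithelial cells of the other 3 libraries had 0.0642% to 0.173%.

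**Figure D4:**
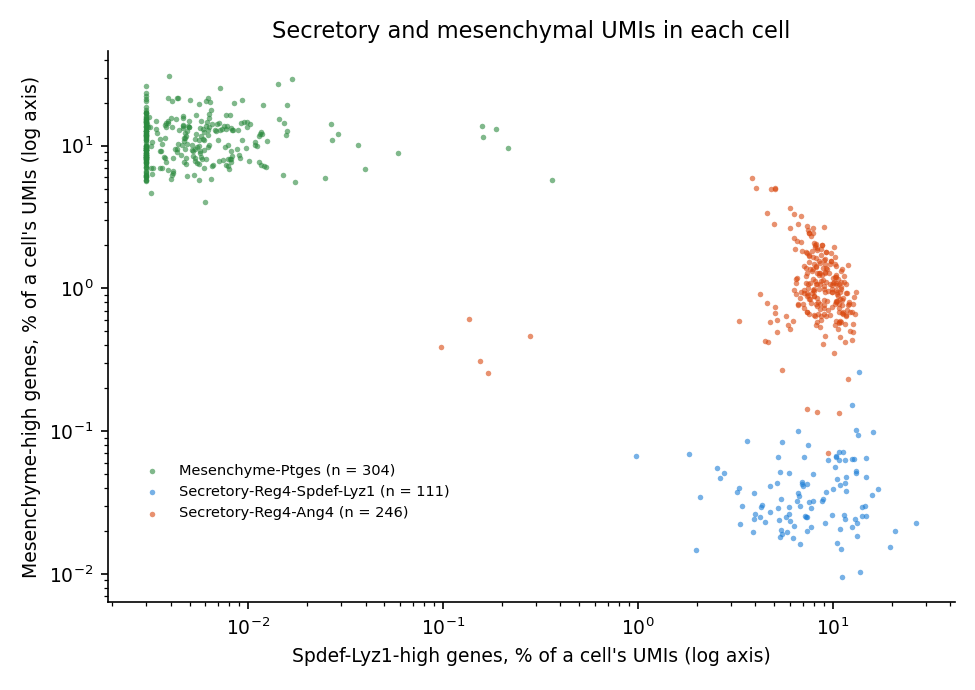
Share of each cell's UMIs in 24 Spdef-Lyz1-high genes (x, log axis) and 167 mesenchyme-high genes (y, log axis), with values under 0.003% drawn at 0.003%. The x axis includes the 5 class markers. The Ang4 class overlaps Spdef-Lyz1 in secretory share and lies between it and Mesenchyme-Ptges in mesenchymal share, while 5 of its cells lie apart at a secretory share under 0.28%.

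The named fibroblast genes were spread over the class in the same way. Grem1, a secreted BMP antagonist of crypt-base stroma, had 487 CPM (428 to 551) from 139 of 246 cells, against 1.24 in Spdef-Lyz1 and 3049.9 in Mesenchyme-Ptges. Saa3, an acute-phase serum amyloid, had 1807 CPM from 210 cells, against 26.7 and 12394. Vim (302 CPM), the intermediate filament of mesenchyme, Dcn (210.0), a matrix proteoglycan, and the collagens Col1a1 (90.3) and Col3a1 (175) were at 97.5, 75.3, 117 and 113 times their Spdef-Lyz1 level. Pdgfra had 14 UMIs in the class and 0 in Spdef-Lyz1. Of 40 textbook fibroblast genes, 38 were measured and 36 had a UMI in the class. Their sum was 3399 CPM in the class, 67.7 in Spdef-Lyz1 and 25794 in Mesenchyme-Ptges. No count of members past 2-fold is read here, because a gene of this list reached 50 CPM through the class in which it was high. Thinned to 1000 UMIs, Saa3 was found in 66.0% (59.7 to 71.9), Mmp3 in 41.8% (35.5 to 48.3), Grem1 in 34.8% (28.9 to 41.2) and Vim in 27.5% (22 to 33.5) of class cells, and in 3, 0, 0 and 1 of 111 Spdef-Lyz1 cells. The variance of the thinned counts was 1.13 times the mean for Grem1, 1.07 for Vim and 1.04 for Mmp3, but 2.89 for Saa3. The study removed doublets by intermediate levels of genes such as Krt8 and Acta2. Acta2, a smooth muscle actin, had 1 UMI in the class and stood at just 46.1 CPM in Mesenchyme-Ptges.

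The mesenchyme-high genes did not share a single ratio to Mesenchyme-Ptges. The ratio of the class to Mesenchyme-Ptges had a median of 0.129 over the 167 genes (quartiles 0.0832 and 0.175). For 107 genes the counting interval held that median, for 31 it lay above and for 29 below. Among the highest were Gm13889 (1.03, 0.793 to 1.33), the growth factor Bmp4 (0.626, 0.450 to 0.850), Thbs2 (0.420, 0.308 to 0.560) and Col12a1 (0.282, 0.228 to 0.346). Among the low ones were Serpinf1 (0 UMIs), the retinoic acid binding protein Crabp1 (0.0128, 0.00715 to 0.0211), Postn (0.0186, 0.00383 to 0.0543), the chemokine Ccl2 (0.0451, 0.0394 to 0.0513) and the stromelysin Mmp3 (0.0541, 0.0480 to 0.0608). Bmp4 and Thbs2 were chosen after their values were seen. Of the 5 mesenchyme-high genes most abundant in Mesenchyme-Ptges, Saa3 had the highest ratio at 0.146 and Ccl2 the lowest, with Lgals1 at 0.129, Mmp10 at 0.115 and Mmp3 between.

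For Spdef-Lyz1-high genes the ratio to Spdef-Lyz1 had a median of 0.940 over 24 genes (quartiles 0.507 and 1.40), and of 0.698 (0.342 and 1.00) over the 19 that are not class markers. It ran from 0 (Defa24) to 2.58 (Reg4), and the interval held the median in 5 genes. For 9 genes high in Progenitor.1 and Progenitor.2 by the same 10-fold rule, the median ratio was 0.0986 (quartiles 0.0343 and 0.169), and for 20 genes by a 4-fold rule it was 0.165 (0.0872 and 0.279). The 9 included the absorptive genes Car1 (0.0343, 10 UMIs) and Krt20 (0.113, 8 UMIs) and, highest, Clu (0.669, 0.573 to 0.776).

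**Figure D5:**
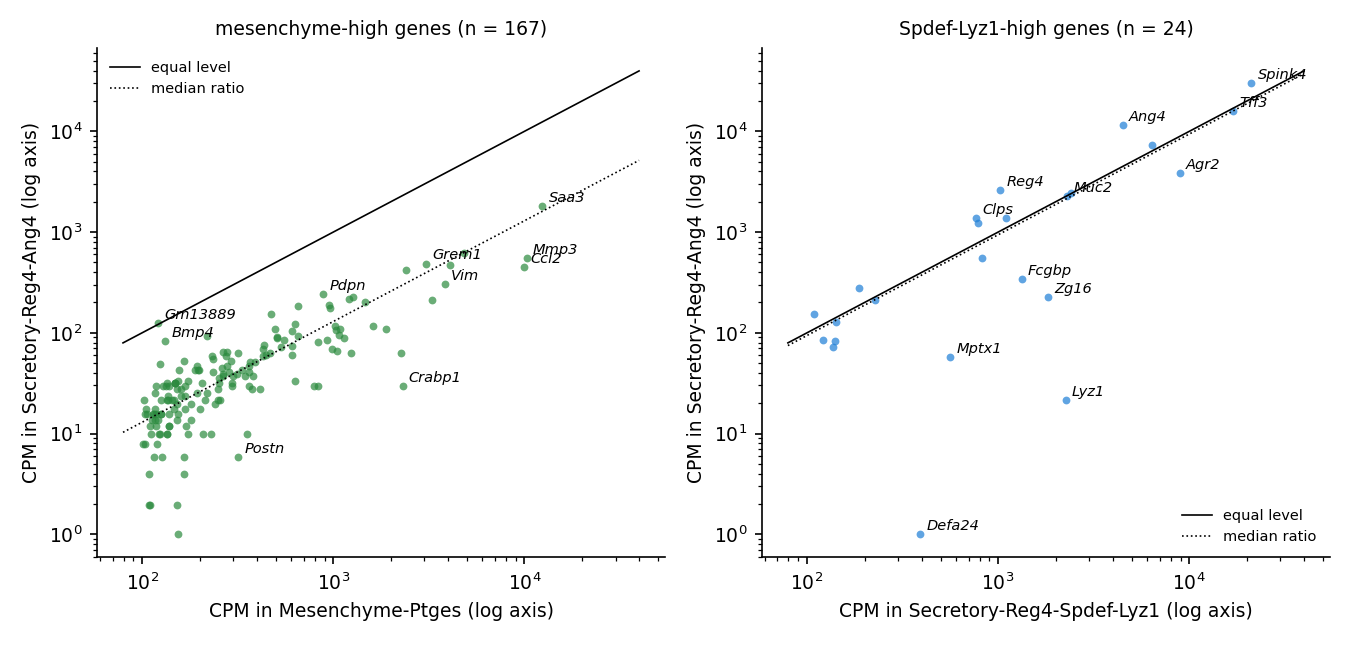
CPM in the Ang4 class against CPM in the source class (log axes) for 167 mesenchyme-high genes (left) and 24 Spdef-Lyz1-high genes (right), with a solid line at equal level and a dotted line at the median ratio. Mesenchyme-high genes scatter around a ratio of 0.129, and among secretory genes Lyz1, Defa24 (0 UMIs, drawn at 1 CPM), Mptx1 and Zg16 fall far under the line.

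A group of 5 cells was unlike the rest of the class. Chgb had 353 UMIs in the class, and 338 of them lay in 5 cells with 44 to 96 each. The other 241 cells had at most 1. These 5 cells also held 42 of the 46 UMIs of Chga, another granule protein of enteroendocrine cells. They had 0 UMIs of Ang4, 3 of Spink4 and 0.0971% to 0.279% of their UMIs in Spdef-Lyz1-high genes, where the other 241 had 3.30% to 13.1%. They were shallow as well, with 1030 to 1475 UMIs, and had 0.256% to 0.610% of UMIs in mesenchyme-high genes. Chgb (693 CPM) and Chga (90.3 CPM) therefore do not describe the class as a whole. Pyy, at 62479 CPM in the enteroendocrine class of the library, was at 31.4 in the Ang4 class. By leading genes, 241 cells were Ang4-high secretory and 5 were Chgb-high.

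UMIs from the Y chromosome were nearly lacking. Ddx3y, Eif2s3y, Kdm5d and Uty together had 1 UMI, or 1.96 CPM (0.0497 to 10.9), in the class. At the Spdef-Lyz1 level of 31.8 CPM (27.6 to 36.4) there would have been 16.2. The progenitor classes were at 28.3 to 32.7 CPM and the enteroendocrine class at 79.3, so that this library held cells with Y-linked RNA in most epithelial classes. Mesenchyme-Ptges was at 0.479 CPM (0.193 to 0.987), the lowest of the 8 classes. Xist, the noncoding RNA of the inactive X chromosome, had 408 CPM (355 to 468) in the class and 507 (489 to 524) in Spdef-Lyz1. Among Spdef-Lyz1 cells, 67 had Xist without Y-linked UMIs, 17 had Y-linked UMIs without Xist, 0 had both and 27 had neither. Ang4 was at 4956 CPM (4892 to 5020) in the 67 and 2176 (2089.8 to 2266) in the 17.

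Nuclear and ribosomal RNA differed too, and so did genes of the stress of tissue dissociation. Malat1, a nuclear noncoding RNA, was at 11456 CPM in the class, 4563 in Spdef-Lyz1 and 13821 in Mesenchyme-Ptges. Gm42418, which overlaps ribosomal RNA sequence, was at 23944, 4075 and 8273 CPM, and AY036118, of the same kind, at 1124, 51.8 and 71.3. The median mitochondrial share of UMIs was 3.75% in the class, 3.16% in Spdef-Lyz1 and 2.79% in Mesenchyme-Ptges, and 10 of 246 class cells against 9 of 111 Spdef-Lyz1 cells were above 10%. Of 16 dissociation stress genes compared with Spdef-Lyz1, 8 were lower by 2-fold or more and 0 higher. The 8 were Fosb, Zfp36, Nr4a1, Egr1, Atf3, Fos, Btg2 and Klf6, while Jun (924 against 1377 CPM) and Jund (651 against 894) were lower by less. Beside 3.14% lower over all genes compared, this share was high, and the 0 of 10 genes of death and survival that differed by 2-fold was near the share over all genes. Against Mesenchyme-Ptges, 6 of 14 stress genes were higher in the class and 3 lower, beside 12.3% and 24.4% over all genes compared. The stress genes summed to 4243 CPM in the class, 7072 in Spdef-Lyz1 and 3937 in Mesenchyme-Ptges, so the class was low only beside Spdef-Lyz1. The part of RNA quality in the differences between the classes was not tested.

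Genes downstream of TNF followed the mesenchymal cells more than the class. Of 34 TNF and NF-kB targets, 8 reached 50 CPM in the comparison with Spdef-Lyz1. Lcn2, Ccl2 and Ccl7 were 2-fold higher and Cxcl2 lower, with 4 in between, beside 5.36% higher and 3.14% lower over all genes compared. Lcn2, Ccl2 and Ccl7 are all mesenchyme-high genes, so their number is not read as a TNF response of the class. Ccl2 was at 447 CPM in the class, 11.3 in Spdef-Lyz1 and 9927 in Mesenchyme-Ptges. The inhibitor Nfkbia, which NF-kB induces, was at 396 CPM (344 to 455), 473 (456 to 489.8) and 749.6 (736 to 764), and Sod2 at 216, 199 and 716. Tnfrsf1b had 4 UMIs in the class and Tnf 11 UMIs, or 7.85 CPM (2.14 to 20.1) and 21.6 (10.8 to 38.6). A difference in either receptor or ligand smaller than these intervals was not detectable at this depth.

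Against Mesenchyme-Ptges the class differed far more widely. Of 3731 genes with at least 50 CPM in either class, 460 were at least 2-fold higher in the Ang4 class (12.3%) and 910 lower (24.4%), with a median log2 difference of -0.22. The 10 highest were Ang4, Sval1, Reg4, Spink4, Tff3, Clps, Sprr2a3, Ccl6, Spink1 and Muc2, the secretory products described above. Spink1, a trypsin inhibitor, was at 2447 CPM against 2.60, and at 2398 in Spdef-Lyz1. The 10 lowest were Serpinf1, Crabp1, 2010005H15Rik, Postn, Il13ra2, Sfrp2, Cck, Nr4a2, Hspg2 and Il11, of which 8 had 5 or fewer UMIs in the class. Of the 162 genes that were higher than in Spdef-Lyz1, 102 (63.0%) were at a higher level in Mesenchyme-Ptges than in the class, beside 1359 (44.9%) of the 3024 genes compared. The 162 held all 58 mesenchyme-high genes compared, which had reached 50 CPM through the class.

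Within the class, the composition moved with depth. The cells were ordered by UMIs and divided into 4 groups of 61 or 62, from 894 to 1571 UMIs in the shallowest to 2358 to 6076 in the deepest. Ang4 was at 13487 CPM (12705 to 14304) in the shallowest and 9372 (8939 to 9821) in the deepest, and Spink4 at 33710.5 and 24934. Mesenchyme-high genes held 1.05% (0.982 to 1.12), 1.08% (1.02 to 1.14), 1.30% (1.24 to 1.36) and 1.45% (1.40 to 1.51) of UMIs from the shallowest to the deepest. Malat1 ran from 7587 to 16047.5 CPM and Xist from 291 (187 to 433) to 534 (435 to 649.5), while Krt8 stayed between 1768 and 2045 CPM. The deeper cells of the class thus held relatively more mesenchymal and nuclear RNA and less of the secretory products. In the deepest group Ang4 was above its Spdef-Lyz1 level, but it names the class, so that is no finding. Muc2, at 1837 CPM (1648 to 2042) in this group, was below its Spdef-Lyz1 level of 2299.8.

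The label came from a clustering of these expression values, so the neighbours of class cells describe the class and do not test it. With all cells thinned to 1000 UMIs, 97.0% of the 15 nearest neighbours of class cells were in the class, and 21 of 244 cells had any neighbour outside it. For Spdef-Lyz1 cells, 82.5% of neighbours were of their own class and 7.87% were Ang4-class cells. With the class itself left out, 86.5% of the neighbours of its cells were Spdef-Lyz1, 4.75% Progenitor.1, 4.04% Progenitor.2 and 0.683% Mesenchyme-Ptges. Across the 2680 genes at 50 CPM or more in the class, which are not independent replicates, its log2 levels had a Pearson correlation of 0.816 with Spdef-Lyz1 and 0.493 with Mesenchyme-Ptges. The other epithelial classes lay between, at 0.619 (Absorptive) to 0.767 (Progenitor.3). With the sum of all other cells of the library the correlation was 0.905, the highest of those computed. The points share the class's own counts and the genes were selected by them. Ang4 was at 20.3 times its level in that sum, and Reg4 at 19.5 times. Both genes name the class, so these ratios describe the label and are no finding.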

How the data were processed

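RNA of single cells was measured with the 10x Genomics Chromium platform in 4 libraries of mouse colonic organoids. The authors counted UMIs with Cell Ranger (5.0.0 per the submitters' processing notes, genome build mm10), removed cells with fewer than 100 UMIs, filtered epithelial-mesenchymal doublets and assigned Leiden clusters in monocle3 to classes. The deposited values are raw counts of UMIs for 30360 genes and 6155 cells, without normalization. The deposited class labels were used as given. The part of mixed or free RNA was not tested.

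UMIs were summed per class and scaled to CPM. Differences are log2(CPM + 1), and a gene was compared where either class reached 50 CPM and counted at 2-fold. Sums carry exact Poisson intervals, shares exact Clopper-Pearson intervals and ratios exact conditional intervals, all at 95%, and a sum of 0 is limited by 3 counts. With 1 library per group no p-value is given. Cells were thinned to 1000 UMIs without replacement. Neighbours used 2000 variable genes and 20 principal components. Scrublet (scanpy 1.11.5, expected rate 0.06) called 0 of 1469 cells at its own threshold, so the deposited cells were kept. Members and gene lists were chosen with earlier results of these data known. The genes named are fixed markers, the 10 furthest each way in both comparisons at 100 CPM or more, the 3 most abundant of each list and the 5 most abundant mesenchyme-high genes. Others are members of the lists or sets they are given with. Positions are from GENCODE M21. Python 3.11.15 and edgeR 4.0.16 (scaling factors only) were used, and the counting was tested on simulated data. Alternatives were other pseudocounts, minima and scalings, subsets by depth, doublet score, Chgb or Y-linked UMIs, and other thinning and neighbour settings.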

Additional observations from a re-analysis of the deposited data

How the results depend on the processing

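No paired analysis was possible because each group had 1 library and the groups shared no replicate pairs. The main counts against Spdef-Lyz1 were 162 genes higher and 95 lower, and those against Mesenchyme-Ptges 460 and 910. A minimum of 20 CPM gave 412 and 270.0, and 853 and 1737, and no minimum gave 2012 and 1445, and 2303 and 3848, since more genes of few UMIs were compared. With class cells under 2000 UMIs, 186 genes were lower than in Spdef-Lyz1. The counts were within 1.5 times of the main ones under pseudocounts of 0.1 and 10 CPM, TMM and median-of-ratios factors, means over cells and class cells of at least 2000 UMIs. The same held for alternatives chosen after seeing the data. These left out the 6% of cells with the highest doublet scores (14 of the class), the 5 Chgb cells or cells with Y-linked UMIs. Of the 162 genes higher than in Spdef-Lyz1, 104 were not mesenchyme-high, a count outside that range. The mesenchymal share of 1.27% was 1.20% as a mean over cells, 1.40% in cells of at least 2000 UMIs, 1.07% in shallower ones, 0.340% by the textbook fibroblast list and 1.06% without the highest doublet scores. Its median ratio stayed between 0.105 and 0.143, the share of cells with Ang4 between 96.3% and 98.0%, and the same-class neighbour share between 94.6% and 97.0%. Removal of called doublets was not run, as none was called. In no alternative did a marker reverse. A depth of 509597 UMIs puts 3 counts at 5.89 CPM, which limits statements on low genes.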
